A study of Mus musculus with 6 samples.

Results

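The genes described here encode a glucose transporter and 9 enzymes of the route that turns glucose into lactate. They were chosen by name, with earlier results of these data known. They are the rows Slc2a1, Hk1, Hk2, Gpi1, Pfkp, Aldoa, Gapdh, Pgk1, Eno1 and Ldha of a count table with 23337 gene symbols, and all 10 names were found. Of these, 9 passed the filter on low counts and were tested, and Eno1 did not. RNA sequencing counted transcripts in macrophages that had been raised from mouse bone marrow over 7 days in medium with 10% M-CSF, a growth factor for these cells. There were 2 libraries each of cells lacking Ch25h (Ch25hKO), of cells without the liver X receptors LXRα and LXRβ (LXRdKO), and of wild-type cells (WT). The knockout cells came from knockout mice. C57BL/6 was the stated strain throughout, and every culture had received LPS, a bacterial cell wall component, at 100 ng/ml for 8 h before harvest. No unstimulated sample was compared, so no value below gives the response to LPS.

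Glycolysis splits glucose in the cytosol and gives ATP and pyruvate, which lactate dehydrogenase can reduce to lactate. Macrophages that sense LPS are known to raise glucose uptake and lactate release, and many of these genes are known targets of the oxygen-sensitive transcription factor HIF-1. Ch25h makes the oxysterol 25-hydroxycholesterol, which restrains the sterol-responsive factor SREBP2 and can bind LXRs, the oxysterol-activated receptors of lipid metabolism.

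Total counts lay between 41650513 and 45872964 per library. The knockout labels were checked on their own genes: Ch25h had 42 and 57 counts in Ch25hKO, against 3120 and 3076 in WT. Nr1h3 (LXRα) had 42 and 41 counts in LXRdKO, against 710 and 756 in WT, and Nr1h2 (LXRβ) had 35 and 35 counts in LXRdKO, against 1292 and 1401 in WT. Defining macrophage genes were high everywhere, with a summed level of 7 markers of 6694 to 6877 CPM in Ch25hKO, 7579 to 7603 CPM in LXRdKO and 6614 to 6694 CPM in WT. CPM are counts scaled to a common library size with a correction for composition (TMM). Sums of other markers were small: 51.7 to 54.5 CPM for 5 neutrophil genes in Ch25hKO, 18.8 to 19.5 CPM in LXRdKO and 38.6 to 39.5 CPM in WT. Most of each neutrophil sum was S100a8 alone, at 48.1 and 50.4 CPM in Ch25hKO, 16.4 and 16.6 CPM in LXRdKO, and 35.9 and 35.1 CPM in WT. The 5 stromal genes summed to 27.3 to 30.3, 13.9 to 15.5 and 11.9 to 12.4 CPM, and the 5 dendritic cell genes to 12.5 to 13.5, 21.4 to 23.1 and 26.7 to 27.8 CPM, in the same order of groups. B and T cell genes summed to at most 3.92 CPM and erythroid genes to at most 2.69 CPM in any library, with Hbb-b1 and Hba-a1 at 0 in all 6. Of the tested markers in Ch25hKO against WT, 5 of 5 stromal and 1 of 4 neutrophil genes rose, 3 of 5 dendritic cell and 1 of 3 B and T cell genes fell, and 1 of 7 macrophage genes rose and 2 fell. In LXRdKO against WT, 5 of 7 macrophage and 2 of 5 stromal genes rose, and 3 of 4 neutrophil, 1 of 5 dendritic cell and 1 of 3 B and T cell genes fell. Over all genes tested, 19.8% were higher and 19.5% lower in Ch25hKO, and 16.4% higher and 15.5% lower in LXRdKO. With RLE or upper-quartile scaling, or with DESeq2 as the test, 4 of 5 stromal genes rose in Ch25hKO. With DESeq2, 1 of 3 tested neutrophil genes fell in LXRdKO. Some of the counts above rest on 1 library. Fewer stromal genes rose in Ch25hKO when Ch25hKO replicate 1 or WT replicate 2 was dropped. Fewer neutrophil genes fell in LXRdKO when either LXRdKO library was dropped. For Ch25hKO, dropping its replicate 1 left no macrophage gene risen and 1 fallen and made 2 B and T cell genes fall, and no B and T cell gene fell when Ch25hKO replicate 2 or WT replicate 1 was dropped. For LXRdKO, 3 macrophage genes rose when either LXRdKO library was dropped, 1 stromal gene rose when LXRdKO replicate 1 or WT replicate 2 was dropped, and no B and T cell gene fell when either LXRdKO library or WT replicate 1 was dropped. The 1 tested erythroid gene was not called; the part of these cells in the values below was not tested. Libraries of bulk cells cannot tell fewer expressing cells from less RNA per cell. Nothing in the labels says that the replicates were separate mice or cultures. The p-values set each difference against a spread between these libraries, estimated over all genotypes and with sharing across genes, and that spread may be technical.

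The start regions of 2 members are shown because these had the largest changes, Gpi1 in Ch25hKO against WT and in LXRdKO against Ch25hKO, and Gapdh in LXRdKO against WT. Each run covers 250 bases before and 50 bases after the annotated start, from RefSeq on GRCm38.p6 (the mm10 assembly), 5′ to 3′ on the gene's strand, the minus strand in both. Capitals mark ACGTG and GCGTG on either strand, the core letters that HIF-1 is known to bind. The Gpi1 run lies at chr7:34230287-34230586 and the Gapdh run at chr6:125165724-125166023.
Gpi1: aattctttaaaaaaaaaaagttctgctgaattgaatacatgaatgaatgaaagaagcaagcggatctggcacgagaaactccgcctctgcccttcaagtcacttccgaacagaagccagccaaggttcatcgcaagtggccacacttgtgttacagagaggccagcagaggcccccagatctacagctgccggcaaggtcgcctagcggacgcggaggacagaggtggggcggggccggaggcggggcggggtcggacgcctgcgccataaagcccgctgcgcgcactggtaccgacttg
Gapdh: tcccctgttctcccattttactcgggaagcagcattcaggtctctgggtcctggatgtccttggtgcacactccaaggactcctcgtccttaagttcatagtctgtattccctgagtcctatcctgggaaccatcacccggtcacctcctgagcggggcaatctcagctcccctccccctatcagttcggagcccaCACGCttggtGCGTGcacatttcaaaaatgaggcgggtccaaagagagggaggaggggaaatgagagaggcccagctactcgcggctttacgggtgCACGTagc
The Gpi1 run held none of these letters, and the Gapdh run held 3 matches. RefSeq listed 16 start regions for the 10 genes, some of which overlap. ACGTG was found in 8 of these 16, against 19.6% of all 32851 start regions of the same length, and GCGTG in 9 of 16, against 32.4%. The E-box CACGTG, which holds ACGTG, was found in 1 of 16 (Ldha) and in 7.15% of all. The sterol response element letters TCACNCCAC were found in 0 of 16 and in 1.24% of all. These are matches of letters in a short window and say nothing of binding.

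Of the 9 tested members, Gpi1, Hk2, Gapdh, Ldha, Slc2a1 and Aldoa rose in Ch25hKO against WT, Pfkp fell, and Hk1 and Pgk1 did not pass the test. The rises ran from 1.11-fold for Aldoa to 1.37-fold for Gpi1. The members took 0.659% and 0.656% of all counts in Ch25hKO, 0.582% and 0.559% in LXRdKO, and 0.535% and 0.539% in WT, and the groups did not overlap. This share sums raw counts, so members with high counts weigh most. Gapdh, the only member called higher in LXRdKO against WT, had 67906 and 67276 counts in LXRdKO, against 51210 and 53187 in WT. The share without Gapdh was not computed. Calls come from edgeR's quasi-likelihood test at a Benjamini-Hochberg adjusted p under 0.05 over 12923 genes, in which 39.3% of all genes were called in this comparison, 19.8% higher and 19.5% lower. The members stood at 6 of 9 higher and 1 of 9 lower, and without Ch25hKO replicate 1 or Ch25hKO replicate 2 at 4 of 9 higher, since Slc2a1 and Aldoa then lost their calls. All 9 averaged over 100 CPM, where a larger share of genes was called: of 1784 genes at that level, 56.6% were called, 21.5% higher and 35.1% lower. The median log2 fold change was 0.21 over the 9 members and 0.01 over all genes tested. The libraries of both genotypes did not overlap for 8 of the 9, against 68.3% of all genes. Because the members were chosen with earlier results of these data known, these counts beside all genes are a description and not a test.

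In cells without the LXRs, Gapdh rose, Hk1 and Gpi1 fell, and the other 6 tested members did not pass the test in LXRdKO against WT. That is 3 of 9 called, close to the 31.8% of all genes called, with 1 of 9 higher (16.4% of all genes) and 2 of 9 lower (15.5%). Among genes averaging at least 100 CPM the background was 47.6% called, 28.5% higher and 19.2% lower. The median log2 fold change was 0.06 over the members and 0.00 over all genes. The libraries did not overlap for 6 of the 9, against 63.6% of all genes. The 2 knockouts share their WT libraries, so their direct comparison is given beside these. In LXRdKO against Ch25hKO, Gpi1, Hk2 and Ldha were lower, Pfkp was higher and 5 did not pass, which is 4 of 9 called where 37.9% of all genes were (18.6% lower, 19.3% higher). At 100 CPM and above, 60.7% of genes were called, 20.4% lower and 40.3% higher. All 9 kept apart between these knockouts in the raw order of their libraries, 7 lower and 2 higher in LXRdKO, as did 71.2% of all genes in either direction.

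**Figure D1:**
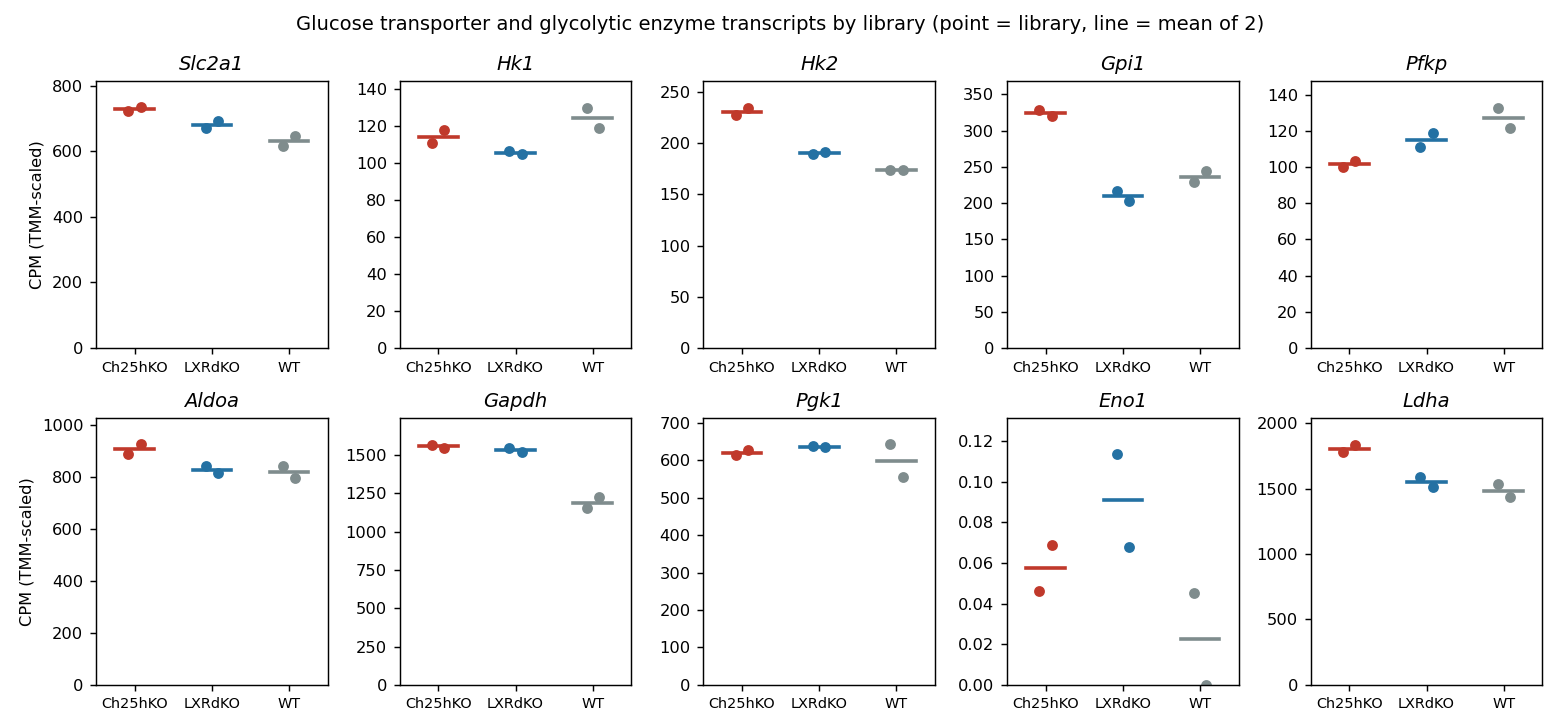
Level of each of the 10 genes in CPM on a linear axis from 0, 1 point per library and a line at the mean of the 2 libraries, with Ch25hKO, LXRdKO and WT from left to right. Gpi1 reached 329 and 321 CPM in Ch25hKO, Gapdh stood apart from WT in both knockouts, and Eno1 stayed below 0.12 CPM.

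**Figure D2:**
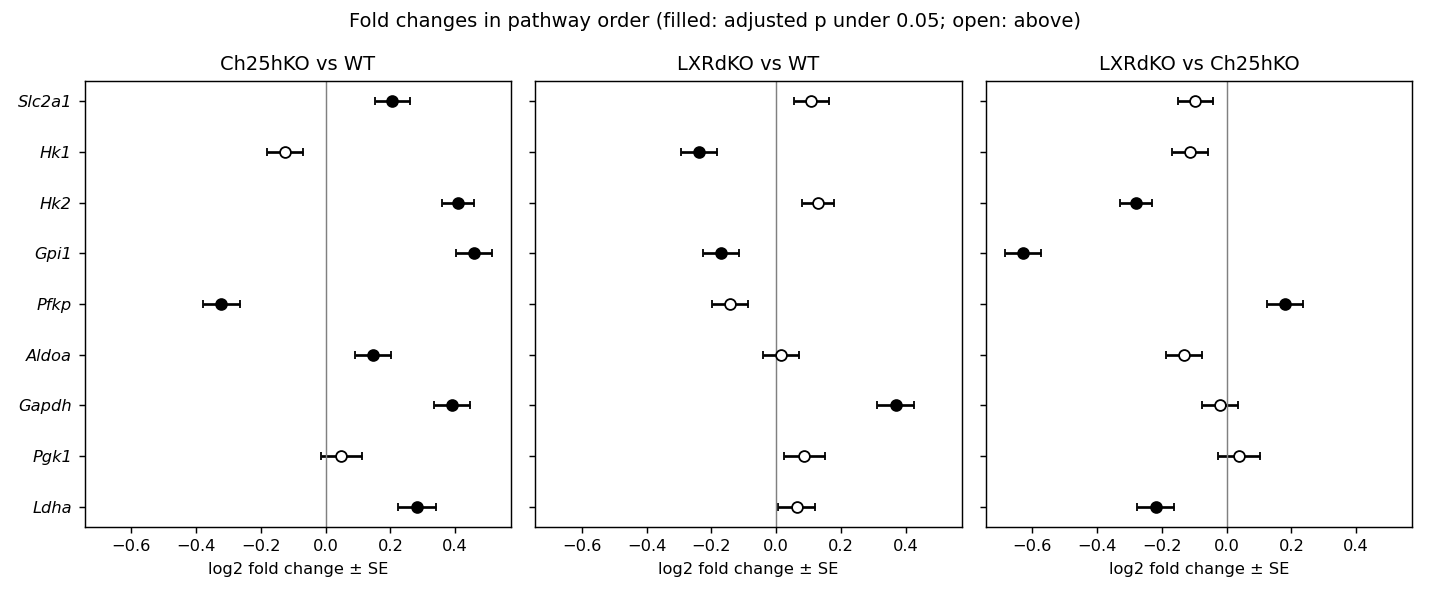
Log2 fold change with its standard error for the 9 tested genes, in pathway order from top to bottom, for Ch25hKO against WT, LXRdKO against WT and LXRdKO against Ch25hKO. Filled points passed an adjusted p of 0.05; Gpi1 lies at 0.46, -0.17 and -0.63 in the 3 panels.

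Glucose entry is represented by Slc2a1 (ENSMUSG00000028645.11, chromosome 4, 119108711 to 119137983, GRCm38), which encodes the transporter GLUT1. It had 722 and 734 CPM in Ch25hKO, 669.8 and 692 CPM in LXRdKO, and 617 and 646 CPM in WT. All 3 genotypes kept apart, with Ch25hKO highest and WT lowest. It rose by 0.21 ± 0.05 (log2 fold change ± standard error, n = 2 libraries per group; edgeR adjusted p = 0.00530) in Ch25hKO against WT. That call was lost without Ch25hKO replicate 1 or Ch25hKO replicate 2 (adjusted p = 0.0511 and 0.0592). In LXRdKO against WT the value was 0.11 ± 0.05 (edgeR adjusted p = 0.136), with a 95% interval from -0.00 to 0.22.

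Hexokinases trap glucose in the cell as glucose 6-phosphate, and 2 isoforms are among the members. Hk2 (ENSMUSG00000000628.10, chromosome 6, 82725025 to 82774454), the inducible isoform, had 228 and 234 CPM in Ch25hKO, 189 and 191 CPM in LXRdKO, and 174 and 174 CPM in WT. Its Ch25hKO libraries were above the other 4. It rose by 0.41 ± 0.05 in Ch25hKO against WT (edgeR adjusted p = 3.94e-06) and was 0.28 ± 0.05 lower in LXRdKO than in Ch25hKO on the log2 scale (-0.28, edgeR adjusted p = 0.000192). The value in LXRdKO against WT was 0.13 ± 0.05 and did not pass (edgeR adjusted p = 0.0559). Hk1 (ENSMUSG00000037012.18, chromosome 10, 62268855 to 62379908), the isoform most tissues express constantly, had 111 and 117 CPM in Ch25hKO, 106 and 105 CPM in LXRdKO, and 129.7 and 119 CPM in WT. Both knockouts were below WT in every library. It fell by 0.24 ± 0.06 in LXRdKO against WT (edgeR adjusted p = 0.00317), a call lost without LXRdKO replicate 2 (-0.23, adjusted p = 0.0518). In Ch25hKO against WT it was at -0.13 ± 0.06 (edgeR adjusted p = 0.0826), which passed without WT replicate 2 (-0.20, adjusted p = 0.00185).

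Gpi1 (ENSMUSG00000036427.5, chromosome 7, 34201330 to 34230336), whose product converts glucose 6-phosphate to fructose 6-phosphate, rose in Ch25hKO and fell in LXRdKO. It had 329 and 321 CPM in Ch25hKO, 217 and 203 CPM in LXRdKO, and 229 and 244 CPM in WT. Ch25hKO lay far above both other genotypes and LXRdKO just below WT. The rise in Ch25hKO against WT was 0.46 ± 0.06 (edgeR adjusted p = 3.50e-06). The fall in LXRdKO against WT was -0.17 ± 0.06 (edgeR adjusted p = 0.0251), a call lost without WT replicate 2 (-0.14, adjusted p = 0.0512) or LXRdKO replicate 2 (-0.12, adjusted p = 0.269). Between the knockouts LXRdKO was 1.55-fold lower (-0.63 ± 0.06, edgeR adjusted p = 5.87e-08). Gpi1 lies 10.3 Mb, Ldha 2.3 Mb and Aldoa 82.2 Mb from Nr1h2, the LXRβ gene, on chromosome 7, and the part of this position in the LXRdKO values was not tested.

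Pfkp (ENSMUSG00000021196.14, chromosome 13, 6579768 to 6648777) encodes the platelet isoform of phosphofructokinase, the enzyme of the committed step. It was the member that fell without Ch25h. It had 99.8 and 103 CPM in Ch25hKO, 111 and 119 CPM in LXRdKO, and 132 and 121 CPM in WT. The genotypes kept apart, with WT highest and Ch25hKO lowest. It fell by 0.32 ± 0.06 in Ch25hKO against WT (edgeR adjusted p = 0.000200). In LXRdKO against WT it was at -0.14 ± 0.06 (edgeR adjusted p = 0.0627), which passed without WT replicate 2 (-0.22, adjusted p = 0.00108). It was higher in LXRdKO than in Ch25hKO by 0.18 ± 0.06 (edgeR adjusted p = 0.0179), a call lost without Ch25hKO replicate 1, Ch25hKO replicate 2 or LXRdKO replicate 2 (adjusted p = 0.180, 0.0558 and 0.222). The exons of Pfkp overlap those of the opposite-strand gene Pitrm1 over 17.4% of their length, and no source used here states whether counting used strand. Pitrm1, chosen after its values were seen, rose in Ch25hKO, with 24.5 and 24.4 CPM against 20.1 and 20.5 CPM in WT (0.27 ± 0.07).

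Aldoa (ENSMUSG00000030695.16, chromosome 7, 126795234 to 126800751) encodes aldolase A, which splits a sugar bisphosphate into a pair of triose phosphates. It had 888 and 927 CPM in Ch25hKO, 841 and 814 CPM in LXRdKO, and 843 and 795 CPM in WT. LXRdKO and WT overlapped and Ch25hKO lay above both. Its rise in Ch25hKO against WT, 0.15 ± 0.06 (edgeR adjusted p = 0.0438), was the call nearest the threshold and was lost in 9 of 15 alternatives, including without any 1 library other than WT replicate 1 (adjusted p = 0.0805 to 0.275). The LXRdKO value against WT was 0.01 ± 0.06 (edgeR adjusted p = 0.872), with a 95% interval from -0.10 to 0.13.

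Gapdh was the member that rose in both knockouts. Gapdh (ENSMUSG00000057666.18, chromosome 6, 125161715 to 125166467) encodes glyceraldehyde 3-phosphate dehydrogenase, which yields NADH and opens the energy-harvesting phase. It had 1565 and 1549 CPM in Ch25hKO, 1547 and 1522 CPM in LXRdKO, and 1153 and 1224.5 CPM in WT. All 4 knockout libraries lay above both WT libraries. The changes were 0.39 ± 0.06 in Ch25hKO (1.31-fold, edgeR adjusted p = 2.56e-05) and 0.37 ± 0.06 in LXRdKO (1.29-fold, edgeR adjusted p = 6.74e-05). Between LXRdKO and Ch25hKO it was at -0.02 ± 0.06 (edgeR adjusted p = 0.805), with a 95% interval from -0.14 to 0.10.

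Pgk1, the next enzyme, showed no call in any comparison. Pgk1 (ENSMUSG00000062070.12, chromosome X, 106187100 to 106203699) encodes phosphoglycerate kinase, which makes ATP. It had 613 and 627 CPM in Ch25hKO, 637 and 635 CPM in LXRdKO, and 644 and 554 CPM in WT. The WT libraries were the farthest apart and spanned the other 4. Ch25hKO against WT was at 0.05 ± 0.06 (95% interval -0.09 to 0.18) and LXRdKO against WT at 0.09 ± 0.06 (-0.05 to 0.22). Without WT replicate 1, the higher WT library, both passed, at 0.16 and 0.20 (edgeR adjusted p = 0.0208 and 0.00503).

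Ldha (ENSMUSG00000063229.15, chromosome 7, 46841475 to 46855627) encodes the A subunit of lactate dehydrogenase, which makes lactate and restores NAD+. It had 1778 and 1837 CPM in Ch25hKO, 1589 and 1516 CPM in LXRdKO, and 1539 and 1434 CPM in WT. Ch25hKO lay above the other 4 libraries, and LXRdKO overlapped WT. It rose by 0.28 ± 0.06 in Ch25hKO against WT (edgeR adjusted p = 0.000898) and was at 0.06 ± 0.06 in LXRdKO against WT (edgeR adjusted p = 0.446). It was lower in LXRdKO than in Ch25hKO (-0.22 ± 0.06, edgeR adjusted p = 0.00604), a call lost without Ch25hKO replicate 2 or LXRdKO replicate 2 (adjusted p = 0.0736 and 0.112).

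Eno1 was almost without counts in a cell type whose other glycolytic genes were abundant. Eno1 (ENSMUSG00000063524.13, chromosome 4, 150236721 to 150248879) encodes enolase 1, which makes phosphoenolpyruvate. It had 2 and 3 counts in Ch25hKO, 5 and 3 counts in LXRdKO, and 2 and 0 counts in WT, and a count of 0 allows up to 0.0691 CPM. No fold change is given at this level. In the mouse annotation, 70.5% of the 50-base windows of the Eno1 transcript occur letter for letter in Eno1b, a gene on chromosome 18. A read from those windows matches both genes. Eno1b, listed in the table under its older symbol Gm5506 and chosen after its values were seen, had 83 and 83 counts in Ch25hKO, 97 and 92 in LXRdKO, and 81 and 74 in WT. Eno2, a further enolase gene also chosen after its values were seen, had 27.1 ± 0.0909 CPM in Ch25hKO, 24.5 ± 2.54 CPM in LXRdKO and 26.6 ± 1.46 CPM in WT (SD, n = 2). How reads shared by these genes were counted is not known, and the part of this sharing in the low Eno1 counts was not tested. Gapdh, with 82.5% of its windows shared with other genes, had 51210 to 67906 counts per library, which does not show how reads of Eno1 were assigned. The enolase step was not compared between genotypes.

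Sequence sharing also touches other members. Of the 50-base windows of the longest coding transcript, 82.5% occur in another annotated gene for Gapdh (222 genes), 68.0% for Pgk1, 25.3% for Gpi1, 17.1% for Pfkp, 16.6% for Ldha, 13.5% for Aldoa, 2.55% for Hk1, 1.74% for Slc2a1 and 0% for Hk2. For Pfkp the shared gene was Pitrm1, its overlapping neighbour. The shared windows of Gpi1 occur in 122 genes, and its exons overlap those of the opposite-strand gene Gm26762 over 12.3% of their length. The same kind of overlap covers 3.22% for Slc2a1 and 1.37% for Aldoa. No source used here states the read length or how reads with several matches were handled, so the values of Gapdh and Pgk1 in particular are uncertain. Gapdh had 51210 to 67906 counts per library, and the part of shared reads in them was not tested.

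**Figure D3:**
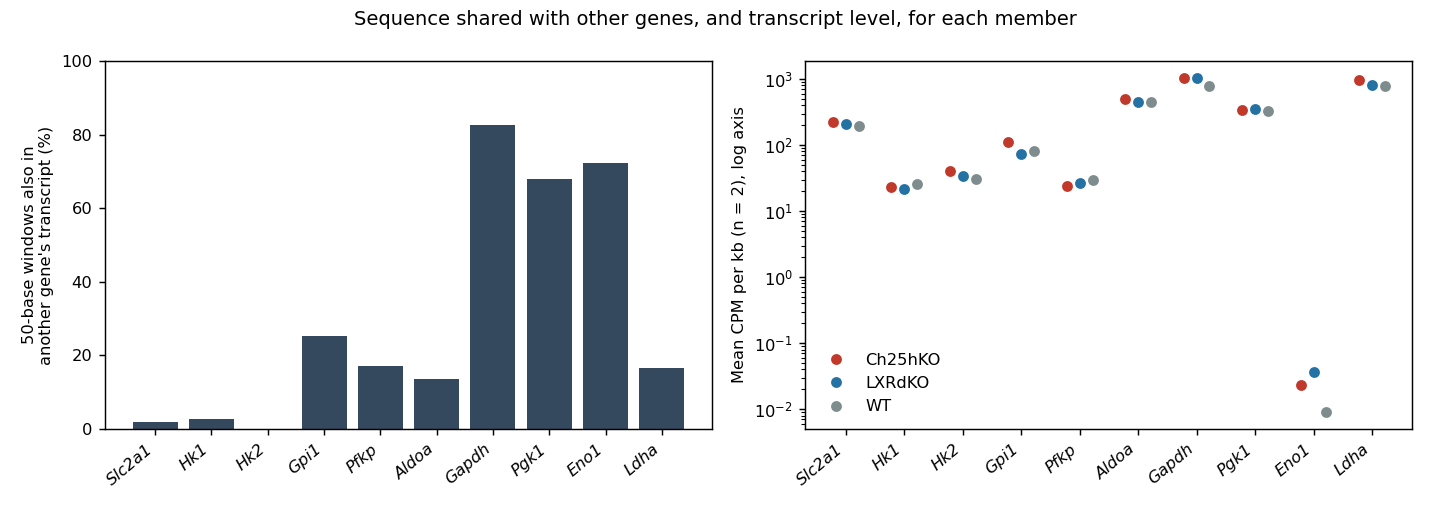
Left, percent of 50-base windows of each gene's longest coding transcript that also occur in a transcript of another gene; right, mean level in CPM per kb of exon (n = 2 libraries) on a log axis for Ch25hKO, LXRdKO and WT. Eno1 has 72.2% of its windows shared and lies at 0.04 CPM per kb or less. Gapdh has 82.5% shared and lies at 795 or more.

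Per length, the members spanned a wide range. Levels in CPM per kb of annotated exon were highest for Gapdh, at 1042 ± 7.76 in Ch25hKO, 1027 ± 12.1 in LXRdKO and 795 ± 34.0 in WT (SD, n = 2), followed by Ldha, at 954 ± 22.2, 819 ± 27.0 and 784 ± 39.2 in the same order. In WT the difference between Gapdh and Ldha was smaller than the spread of either. Aldoa (449 ± 18.3 in WT), Pgk1 (328 ± 34.9), Slc2a1 (194 ± 6.20) and Gpi1 (82.0 ± 3.77) came next. Hk2 (30.9 in both WT libraries), Pfkp (29.5 ± 1.82) and Hk1 (25.6 ± 1.57) were lowest among the tested members, and in WT Hk2 and Pfkp differed by less than the spread of Pfkp. In Ch25hKO the order at the low end was Hk2 (41.1 ± 0.77) above Pfkp (23.6 ± 0.58) and Hk1 (23.5 ± 0.999), with the libraries of Pfkp and Hk1 overlapping.

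The opening steps have several isozymes, whose make-up is given as shares. Hk3, a further hexokinase gene common in myeloid cells, fell in Ch25hKO against WT (492 ± 23.9 against 692 ± 31.0 CPM; -0.49 ± 0.06, edgeR adjusted p = 3.10e-06). As a share of hexokinase transcripts per length, Hk2 took 19.8% and 19.1% in Ch25hKO, 14.4% and 13.8% in LXRdKO, and 11.4% and 12.1% in WT. Hk3 took 69.1% and 69.7% in Ch25hKO, 76.3% and 77.4% in LXRdKO, and 78.7% and 78.3% in WT, and Hk1 8.77% to 11.1% in all libraries. Among phosphofructokinase transcripts, Pfkp took 38.1% and 39.0% in Ch25hKO, 41.9% and 44.1% in LXRdKO, and 48.7% and 48.2% in WT. Pfkl, the liver isoform, chosen after its values were seen, took the larger part of the rest and rose in both knockouts against WT (0.26 ± 0.05 and 0.20 ± 0.05, edgeR adjusted p = 0.000821 and 0.00931). The call in LXRdKO was lost without WT replicate 2 or LXRdKO replicate 1. The 3 genotypes did not overlap in the shares of Hk2 and Pfkp, nor in that of Hk3; these shares were not tested and are a description.

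**Figure D4:**
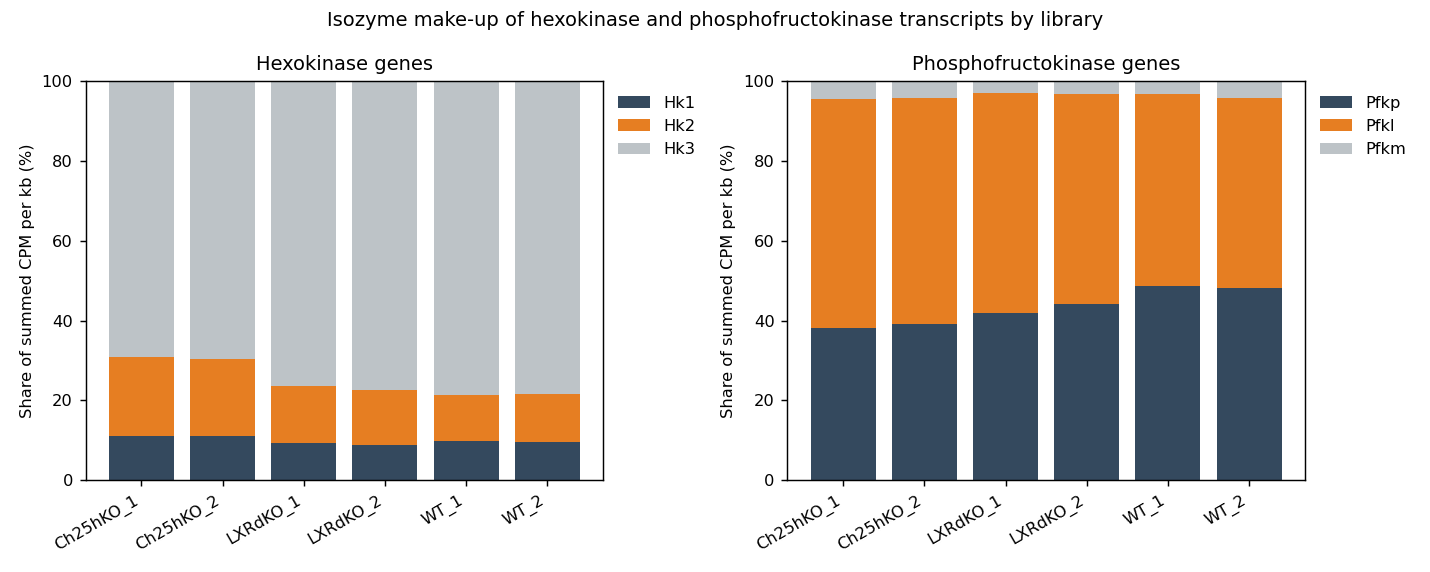
Stacked shares, in percent of the summed CPM per kb, of Hk1, Hk2 and Hk3 (left) and of Pfkp, Pfkl and Pfkm (right), 1 bar per library, with Ch25hKO, LXRdKO and WT from left to right. The Hk2 share is 19.1% to 19.8% in Ch25hKO and 11.4% to 12.1% in WT, and the Pfkp share is 38.1% to 39.0% in Ch25hKO and 48.2% to 48.7% in WT.

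Of 27 other genes of glycolysis and lactate transport, 21 were tested. In Ch25hKO against WT, 8 rose, 2 fell and 11 did not pass, with a median of 0.14, where 19.8% of all genes were higher and 19.5% lower. Leaving out Ch25hKO replicate 2 left 5 risen. The fallen numbered 4 with WT replicate 2 left out, and 1 with either Ch25hKO replicate 1 or WT replicate 1 left out. Slc16a3, the lactate exporter MCT4, had 152 and 159 CPM in Ch25hKO, against 109 and 115 CPM in WT. Its rise (0.47 ± 0.05, edgeR adjusted p = 1.44e-06) went with that of Bsg, the partner protein of lactate transporters (0.31 ± 0.05, edgeR adjusted p = 8.42e-05), and of Aldoc, a further aldolase gene (0.59 ± 0.08, edgeR adjusted p = 1.68e-05). Tpi1, Pgam1 and Pkm, listed in the table under the older symbol Pkm2, fill the steps that the members leave out and were chosen after their values were seen. In Ch25hKO against WT, Tpi1 rose by 0.28 ± 0.06 and Pgam1 by 0.18 ± 0.05 (edgeR adjusted p = 0.00102 and 0.0132), and Pkm was at -0.07 ± 0.06 (edgeR adjusted p = 0.319). The call of Pgam1 was lost without WT replicate 2, Ch25hKO replicate 1 or Ch25hKO replicate 2.

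In LXRdKO against WT, 5 of these 21 genes rose, 4 fell and 12 did not pass, with a median of -0.00, where 16.4% of all genes were higher and 15.5% lower. The risen came to 3 without WT replicate 2 or LXRdKO replicate 1, and the fallen to 1 without LXRdKO replicate 1 and to 2 without LXRdKO replicate 2 or WT replicate 1. Slc16a1, the lactate and pyruvate transporter MCT1, had 60.7 and 61.1 CPM in LXRdKO, against 123 and 113 CPM in WT. It fell by 0.96 ± 0.06 (edgeR adjusted p = 1.32e-09), and the direct comparison of LXRdKO with Ch25hKO gave -0.83 (edgeR adjusted p = 4.05e-09). Slc2a6, the transporter GLUT6, had 446 and 458 CPM in LXRdKO, against 333 and 340 CPM in WT (0.43 ± 0.05, edgeR adjusted p = 6.28e-06). In Ch25hKO it rose by 0.18 ± 0.05, a call lost without Ch25hKO replicate 1 or Ch25hKO replicate 2. Aldoc (0.40 ± 0.08) and Slc16a3 (0.23 ± 0.05) also rose in LXRdKO against WT (edgeR adjusted p = 0.00125 and 0.00284).

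**Figure D5:**
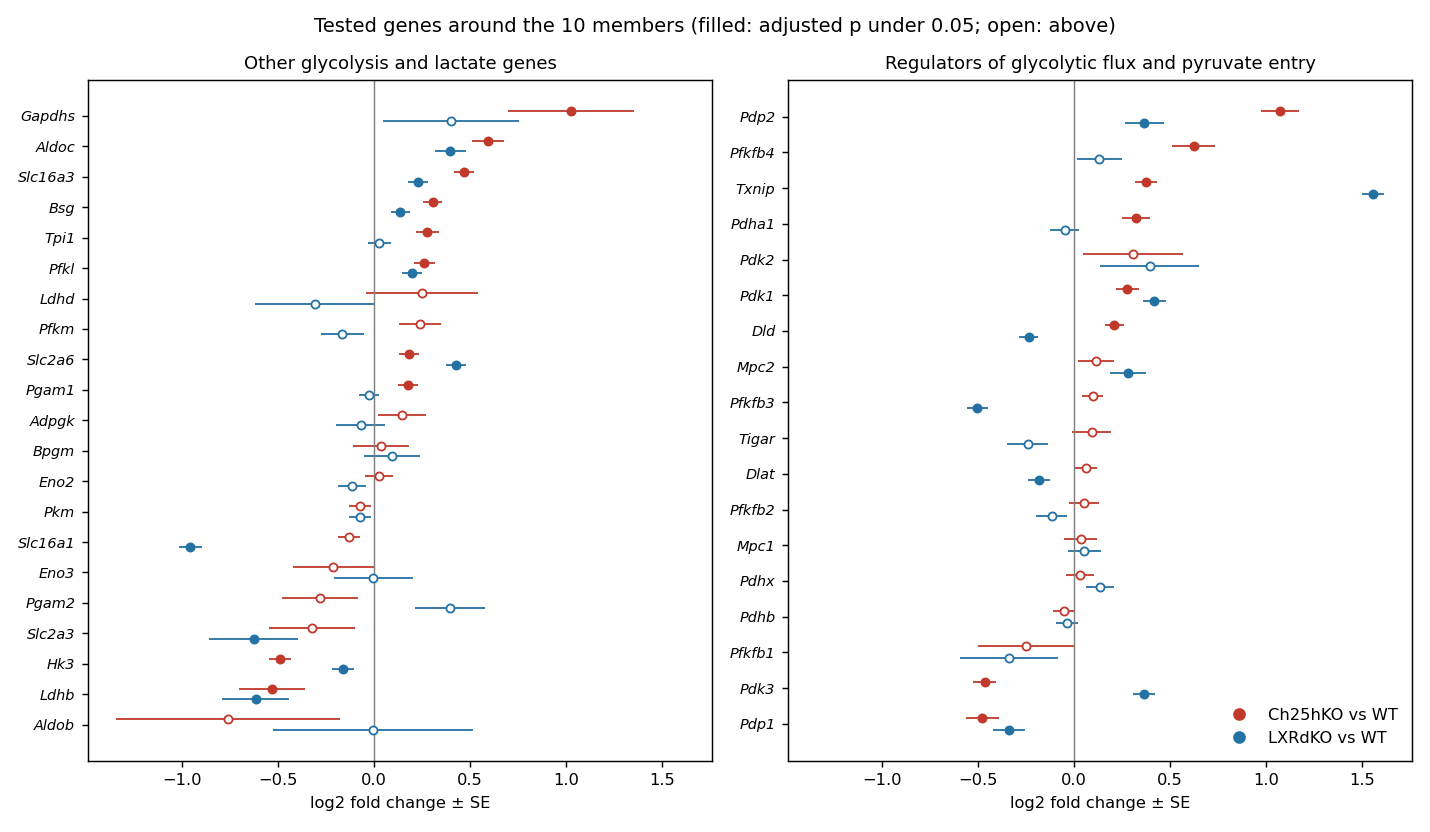
Log2 fold change with its standard error in Ch25hKO against WT and LXRdKO against WT for 21 tested genes of glycolysis and lactate transport (left) and 18 tested regulators (right), sorted by the Ch25hKO value; filled points passed an adjusted p of 0.05. Slc16a1 (-0.96) and Txnip (1.56) lie farthest out in LXRdKO.

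Of 18 tested regulators of glycolytic flux and pyruvate entry, 6 rose and 2 fell in Ch25hKO against WT, and 5 rose and 4 fell in LXRdKO against WT, with medians of 0.09 and 0.01. All genes were called higher and lower at 19.8% and 19.5% in Ch25hKO and at 16.4% and 15.5% in LXRdKO. Without Ch25hKO replicate 1, 4 rose in Ch25hKO, and without LXRdKO replicate 1, 3 rose in LXRdKO. Pfkfb3, which makes an activator of phosphofructokinase, had 854 and 848 CPM in LXRdKO, against 1234 and 1182 CPM in WT. It fell by 0.51 ± 0.05 in LXRdKO (edgeR adjusted p = 1.49e-06) and was at 0.10 ± 0.05 in Ch25hKO against WT (edgeR adjusted p = 0.176). Txnip, an inhibitor of glucose uptake, had 188 and 177 CPM in LXRdKO, 79.0 and 81.8 CPM in Ch25hKO, and 64.8 and 59.5 CPM in WT. It rose 2.94-fold in LXRdKO (1.56 ± 0.06, edgeR adjusted p = 1.60e-12) and by 0.37 ± 0.06 in Ch25hKO (edgeR adjusted p = 5.81e-05).

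These regulators include the kinases and phosphatases that switch pyruvate dehydrogenase off and on. Pdk3, a kinase gene, fell in Ch25hKO and rose in LXRdKO, with 27.7 and 27.5 CPM in Ch25hKO, 47.5 and 50.4 CPM in LXRdKO, and 38.9 and 37.2 CPM in WT. The changes against WT were -0.47 ± 0.06 and 0.36 ± 0.06 (edgeR adjusted p = 7.72e-06 and 0.000101), and LXRdKO against Ch25hKO was at 0.83 (edgeR adjusted p = 4.13e-09). Pdk1 rose in both knockouts, by 0.28 ± 0.06 in Ch25hKO and 0.42 ± 0.06 in LXRdKO (edgeR adjusted p = 0.00143 and 4.02e-05). Of the phosphatase genes, Pdp2 rose 2.10-fold in Ch25hKO (1.07 ± 0.10, edgeR adjusted p = 1.18e-07) while Pdp1 fell in Ch25hKO (-0.48 ± 0.09, edgeR adjusted p = 0.000229). In LXRdKO, Pdp2 was at 0.37 ± 0.10 and Pdp1 at -0.34 ± 0.08, and both calls were lost without LXRdKO replicate 1, that of Pdp1 also without WT replicate 1.

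Among 12 tested HIF and MYC regulators, 3 rose and 5 fell in Ch25hKO against WT, and 3 rose and 1 fell in LXRdKO against WT, beside the same shares of all genes. In Ch25hKO the fallen came to 2 without WT replicate 1 and to 3 without Ch25hKO replicate 1 or Ch25hKO replicate 2, and in LXRdKO to 3 without WT replicate 2. Hif1a, chosen after its values were seen, was at 0.09 ± 0.05 and 0.06 ± 0.05 (edgeR adjusted p = 0.186 and 0.399). Egln3 and Egln1, oxygen sensors that mark HIF proteins for destruction and are themselves HIF targets, rose in both knockouts. Egln3 was at 0.75 ± 0.06 in Ch25hKO and 0.63 ± 0.06 in LXRdKO, and Egln1 at 0.56 ± 0.05 and 0.30 ± 0.05 (edgeR adjusted p at most 0.000323 in all 4). Max, the partner of MYC, fell in Ch25hKO (-0.34 ± 0.06, edgeR adjusted p = 0.000387), as did Hif1an (-0.31 ± 0.08, edgeR adjusted p = 0.00324), a call lost without WT replicate 1. In LXRdKO, Mlxip rose by 0.17 ± 0.05 (edgeR adjusted p = 0.0145), a call lost without LXRdKO replicate 2. Hif3a fell in LXRdKO (-1.32 ± 0.29, edgeR adjusted p = 0.00180). Its level averaged 0.633 CPM in Ch25hKO, 0.477 CPM in LXRdKO and 1.20 CPM in WT, so both knockouts were below WT.

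The remaining lists cover pathways that branch from glycolysis, and their counts too stand beside 19.8% of all genes higher and 19.5% lower in Ch25hKO and 16.4% higher and 15.5% lower in LXRdKO. Of 11 tested pentose phosphate genes, 3 rose and 2 fell in Ch25hKO against WT and 2 rose and 9 did not pass in LXRdKO against WT. Tkt, the transketolase gene, rose by 0.67 in Ch25hKO (edgeR adjusted p = 4.40e-08) and by 0.19 in LXRdKO (edgeR adjusted p = 0.0162), the second a call lost without WT replicate 1 or either LXRdKO library. In Ch25hKO the fallen came to 0 without either Ch25hKO library and to 1 without any other library. In LXRdKO the risen came to 0 without either LXRdKO library and to 1 when Ch25hKO replicate 1 or WT replicate 1 was dropped, and dropping WT replicate 1 made 1 fall. Of 14 gluconeogenic and glycogen genes, 4 rose and 3 fell in Ch25hKO and 2 rose and 2 fell in LXRdKO. The fallen in Ch25hKO came to 2 with DESeq2, limma-voom, a replicate block or only the 4 libraries compared. Their number also dropped when any library other than WT replicate 1 was left out. For LXRdKO the fallen came to 1 with DESeq2, limma-voom, no filter, a replicate block or only the 4 libraries compared, and to 3 with RLE scaling. Gys1, the glycogen synthase gene, rose by 0.63 ± 0.06 in Ch25hKO (edgeR adjusted p = 2.92e-07), and Gyg, the glycogenin gene that primes glycogen, fell in both knockouts (-0.43 ± 0.06 and -0.29 ± 0.06). The risen in Ch25hKO came to 2 without Ch25hKO replicate 1, and in LXRdKO the risen came to 1 without LXRdKO replicate 1 and the fallen to 1 without any 1 of the 4 knockout libraries. Of 18 genes listed for the TCA cycle, 4 rose and 1 fell in Ch25hKO, and 3 fell and 15 did not pass in LXRdKO. These counts were close to those shares for the risen in Ch25hKO and the fallen in LXRdKO. Mdh1 is on this list although it encodes a cytosolic malate dehydrogenase, outside the cycle, and it was the gene that fell in Ch25hKO. It fell in both knockouts (-0.46 ± 0.07 and -0.54 ± 0.08, edgeR adjusted p = 9.84e-05 and 2.59e-05). The risen in Ch25hKO came to 2 without WT replicate 2 or either Ch25hKO library, and in LXRdKO 2 rose without WT replicate 1.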

How the data were processed

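The authors deposited raw read counts per gene symbol, 1 column per library. Alignment with STAR to the mouse genome mm10 is stated in the series' design text, and CASAVA, STAR 2.3.0 and HTSeq are named in the submitters' processing notes; no source used here gives the annotation, counting mode or strand setting. Libraries started from 100 ng RNA per the labels' protocols, which mention no molecular identifiers, so reads need not be independent molecules and the limit given for a count of 0 (3 counts) covers counting error only. Groups and replicate numbers came from the sample titles. edgeR 4.0.16 in R 4.3.3 tested 12923 genes kept by filterByExpr, with TMM scaling, 1 mean per genotype over all 6 libraries and robust quasi-likelihood dispersions, after a check on simulated data; the common coefficient of variation was 4.41%. Standard errors are the size of the log2 fold change over the root of the F statistic.

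Alternatives were RLE and upper-quartile scaling, DESeq2 1.42.0, limma-voom 3.58.1, no filter, a filter of 5 CPM in 2 libraries, only the 4 libraries compared, a replicate block and fits that drop 1 library at a time. Members, 6 pathway lists and 6 marker lists were chosen with earlier results of these data known. The text names all members and, of each pathway list, genes among the 4 of lowest p against WT, beside genes said to be chosen after their values were seen. Positions, exon lengths and transcripts came from GENCODE M21 on GRCm38, and 6 older symbols were matched by name.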

Additional observations from a re-analysis of the deposited data

How the results depend on the processing

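Of 27 member log2 fold changes (9 genes in 3 comparisons), 14 kept their side of the threshold in all 15 alternatives, 0 reversed a call, and of 405 values 19 lost and 20 gained a call. Hk2, Gpi1, Pfkp, Gapdh and Ldha in Ch25hKO against WT kept their calls in all alternatives run, as did Gapdh in LXRdKO against WT and Hk2 and Gpi1 in LXRdKO against Ch25hKO.

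Members lower in Ch25hKO than in WT came to 2 with upper-quartile scaling, with a filter of 5 CPM and with the crossed block, and members lower in LXRdKO than in Ch25hKO to 5 in a fit of only the 4 libraries compared. Leaving out each library in turn, members in Ch25hKO against WT were 4 to 7 higher and 1 to 2 lower, in LXRdKO against WT 1 to 2 higher and 0 to 2 lower, and in LXRdKO against Ch25hKO 0 to 1 higher and 2 to 5 lower. Over all genes the same runs gave 1501 to 2478 higher and 1758 to 2750 lower in Ch25hKO against WT, 1292 to 2097 higher and 1198 to 2232 lower in LXRdKO against WT, and 1712 to 2930 higher and 1504 to 2828 lower in LXRdKO against Ch25hKO. The lowest counts came without a knockout library, where 1 library stands for its group and is assumed to vary like the others; the cause of the other changes was not tested.

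The labels do not say whether replicate numbers pair the libraries, and the main fit did not pair them. Weak correlations cannot settle this, since paired libraries can also differ by independent noise. The correlation of replicate 1 minus replicate 2 was -0.21 between Ch25hKO and WT, -0.03 between LXRdKO and WT and 0.05 between LXRdKO and Ch25hKO. With the replicate block, 5 members were higher and 1 lower in Ch25hKO against WT, where Aldoa did not pass (0.15, adjusted p = 0.0788), and no other member's call changed. A block with the WT numbers swapped, added after the data were seen, gave 6 higher and 2 lower in Ch25hKO against WT (Hk1 gained), 2 higher and 3 lower in LXRdKO against WT (Hk2 and Pfkp gained), and 1 higher and 4 lower in LXRdKO against Ch25hKO (Aldoa gained).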

Other observations

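Gapdh is a common reference transcript, so others often used that way were read beside it, chosen after values were seen. In Ch25hKO against WT, Ppia rose by 0.42 ± 0.05, close to Gapdh at 0.39 ± 0.06. Actb was at 0.01 ± 0.06, Hprt at 0.10 ± 0.05, Tbp at 0.15 ± 0.08 and B2m at 0.14 ± 0.06, none of which passed edgeR's test in the main fit. Of the 5 genes read beside Gapdh, 1 rose in the main fit and 2 with DESeq2, limma-voom or the crossed block. In LXRdKO against WT, Gapdh (0.37 ± 0.06), B2m (0.35 ± 0.06) and Ppia (0.25 ± 0.05) rose, Actb rose by 0.22 ± 0.06, a call lost without WT replicate 2 or either LXRdKO library, Hprt fell (-0.34 ± 0.06) and Tbp was at 0.11 ± 0.08. A value divided by Gapdh would thus stand 0.39 lower in Ch25hKO and 0.37 lower in LXRdKO, on the log2 scale against WT, than the same value scaled by TMM.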
